A study of Mus musculus with 17 samples.

Results

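Mouse Flt3 is read by 30 probe sets on exon arrays of 32D cells, an established line of mouse myeloblasts whose growth depends on IL-3. These are the probe sets that the platform's gene annotation gives to Flt3 alone, 30 of the 1256831 in the table, and dim ones were kept. The receptor put into these cells was human FLT3, while the probes are those of the mouse gene; whether a probe set read the human transcript or the cells' own Flt3 was not tested. The annotation names only the gene of each probe set, not its exon, and the probe sequences were not used here, so neither sequences nor positions within the gene are given.

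Early blood progenitors and dendritic cell precursors carry FLT3, a kinase receptor at the cell surface. Its ligand joins receptors into pairs, which switches on the kinase and, through it, the RAS-ERK, PI3 kinase and STAT5 branches. In acute myeloid leukaemia the gene often carries an internal tandem duplication (ITD) in the part that encodes the juxtamembrane region, and the receptor then signals without ligand.

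RNA of 17 cultures was hybridised, 1 array each. There were 2 arrays of parental 32D cells, 2 of cells with the empty retroviral vector pLXRN, 2 of cells with human wild-type FLT3 from the same vector, 2 taken here as the wild-type line grown with FLT3 ligand at 20 ng/mL, and 9 of cells each with a different human FLT3/ITD mutant, numbered here 1 to 9. Medium of the parental, vector and wild-type cells held murine IL-3 (1 ng/mL); whether that of the cultures with ligand did is not stated. The vector and wild-type lines were selected with G418, while the ITD lines were moved to medium without IL-3 at 2 days after transduction. The sample labels call the ligand group transduced with FLT3 ligand, while the growth protocol describes wild-type cells split into cultures with and without added ligand; the protocol was followed. All transduced lines were polyclonal populations. Receptor type, IL-3 and the way of selection therefore cannot be told apart between ITD and wild-type. Nor can the receptor, IL-3 and the way of selection be told apart between ITD and parental or vector cells. The pairs of arrays are called biological replicates in the titles, but nothing says that they came from separately made lines, so p-values measure the spread between these cultures.

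The values are log2 signals, and the median of all probe sets over the 17 arrays was 4.60. Array medians lay between 4.63 and 4.69, and precision is limited by how many arrays each group has. Myeloid identity was checked with a list of markers: 9 of its 10 genes were measured, including the myeloperoxidase gene Mpo and the transcription factor genes Spi1 and Cebpa, and all 9 had most of their probe sets above the 75th percentile of the table, 6.34. The mean of the list moved with the groups, from 11.04 and 11.09 in parental cells to 9.97 to 10.35 with ITD. All 3 megakaryocyte markers (Pf4, Gp9 and Itga2b) were as bright, and their mean was 9.49 and 9.70 in parental cells, 8.48 and 8.50 with the vector, 7.65 and 7.73 with wild-type FLT3, 8.02 and 8.21 with ligand and 8.53 to 10.10 with ITD. None of 4 T cell, 2 B cell, 4 dendritic cell and 4 fibroblast markers had most probe sets above that percentile. The part of these markers in the Flt3 values was not tested.

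Without a transgene the Flt3 probe sets were mostly dim. Over the 4 parental and vector arrays, together called receptor-free here, their means ran from 2.28 to 7.88 with a median of 4.14, and 13 of the 30 lay above the median of the table, against 51.1% of all probe sets tested. Only 1 lay above the 75th percentile. This was probe set 5153404, which read 7.42 and 7.68 in parental cells, 8.11 and 8.33 with the vector, 7.49 and 7.92 with wild-type FLT3, 7.86 and 7.60 with ligand, and 7.67 to 8.32 with ITD (median 7.91). Both vector arrays lay above all parental, wild-type and ligand arrays. Vector minus parental was 0.67 (limma, unadjusted p 0.00987, adjusted p 0.316). The transgene arrays overlapped the receptor-free ones, and the probe set was called in no contrast. The brightest Flt3 probe set of cells without a transgene was thus not called different in cells with one.

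The 1236087 probe sets that were not 0 throughout were fitted with limma, with 1 mean for each group; called means an adjusted p (Benjamini-Hochberg, over all of these) below 0.05. Against the receptor-free arrays, 5.41% of all probe sets were called with ITD, 3.29% of all being higher and 2.12% of all lower. Of the 30 Flt3 probe sets, 9 were called higher with ITD and none lower. With wild-type FLT3 5 were higher (called over the table: 2.1%, with 1.07% higher), and 5 with wild-type FLT3 and ligand (2.14%, with 1.36% higher). These 5 were the same probe sets in each of the 3 contrasts. The contrasts share the receptor-free arrays, so their calls are not independent of each other. In bulk RNA a larger share of cells with the transgene and more transcript per cell cannot be told apart.

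Probe set 4336763 gave the largest difference of the whole table. It read 4.48 and 4.01 in parental cells, 3.03 and 3.56 with the vector, 12.04 and 11.99 with wild-type FLT3, 11.84 and 11.99 with ligand, and 12.26 to 13.11 with ITD (median 12.54). The signal was thus below the median of the table in every culture without the transgene and high in every culture with it, with a gap of 7.36 between the lowest transgene array and the highest receptor-free array. The difference was 8.78 ± 0.14 (log2, SE) for ITD (adjusted p 3.11e-21), 8.25 ± 0.20 for wild-type (adjusted p 5.02e-17) and 8.15 ± 0.20 for wild-type with ligand (adjusted p 6.60e-17).

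The receptor-free readings of 4336763, and those of 5185356, 5518284 and 5131039 below, average under the median of the table, where RMA compresses differences and no detection call was used here, so these differences are sizes over a floor and not true ratios of RNA.

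Probe set 5449002 had brighter receptor-free readings. It read 5.23 and 6.37 in parental cells, 5.48 and 4.96 with the vector, 11.93 and 11.87 with wild-type FLT3, 11.88 and 12.12 with ligand, and 12.36 to 13.13 with ITD (median 12.72). Its differences from receptor-free cells were 7.18 ± 0.16 for ITD (adjusted p 4.32e-18), 6.39 ± 0.23 for wild-type (adjusted p 2.11e-13) and 6.49 ± 0.23 with ligand (adjusted p 1.50e-13). Both probe sets stayed below the brightest probe set of each array, which read between 14.74 and 15.03.

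A middle level was reached by 2 further probe sets. Probe set 5185356 read 3.71 and 5.37 in parental cells, 2.35 and 4.43 with the vector, 9.34 and 8.89 with wild-type FLT3, 9.00 and 9.38 with ligand, and 9.11 to 10.61 with ITD (median 9.82). Probe set 5518284 read 4.50 and 3.78 in parental cells, 2.95 and 3.35 with the vector, 8.64 and 7.80 with wild-type FLT3, 8.61 and 8.73 with ligand, and 8.54 to 9.21 with ITD (median 8.98). In both, transgene and receptor-free arrays were apart, by gaps of 3.52 and 3.30, while the receptor-free arrays of 5185356 scattered with an SD of 1.28 (n = 4). The ITD difference was 5.89 ± 0.31 for 5185356 (adjusted p 1.86e-10) and 5.32 ± 0.17 for 5518284 (adjusted p 1.83e-14). For wild-type it was 5.15 ± 0.44 (adjusted p 6.34e-07) and 4.58 ± 0.25 (adjusted p 1.14e-09).

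The weakest of the 5 was probe set 5131039. It read 3.24 and 2.46 in parental cells, 3.91 and 3.34 with the vector, 5.97 and 6.60 with wild-type FLT3, 6.18 and 6.50 with ligand, and 5.92 to 7.37 with ITD (median 6.72). Transgene arrays again lay above all receptor-free arrays, and the lowest ITD line was below both wild-type arrays. The differences were 3.47 ± 0.26 for ITD (adjusted p 3.94e-08), 3.05 ± 0.37 for wild-type (adjusted p 4.22e-05) and 3.11 ± 0.37 with ligand (adjusted p 4.63e-05).

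The other 4 called probe sets differed by far less, and none was called with wild-type FLT3 or with ligand in the fit of all arrays and probe sets. Probe set 4474109, which lay below the median of the table, read 2.09 and 2.27 in parental cells, 3.01 and 2.96 with the vector, 3.50 and 3.83 with wild-type FLT3, 4.82 and 3.69 with ligand, and 3.42 to 4.91 with ITD (median 3.85). Its transgene arrays all lay above its receptor-free arrays, by a gap of 0.41, and the ITD difference was 1.28 ± 0.31 (adjusted p 0.0144) and the wild-type difference 1.08 ± 0.45 (adjusted p 0.305). The ligand difference was larger, 1.67 ± 0.45 (adjusted p 0.0528), and was called after renewed quantile normalisation (adjusted p 0.0472), with arrays centred (0.0481), among probe sets with 1 symbol (0.0154) and against parental cells alone (0.0340). Together with the 5 above it made 6 of 30 probe sets without overlap between the 13 transgene and 4 receptor-free arrays in this direction, as were 1.03% of all probe sets.

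Probe sets 4309131 and 4636978 overlapped. Probe set 4309131 read 6.38 and 5.41 in parental cells, 5.21 and 6.18 with the vector, 6.46 and 7.02 with wild-type FLT3, 6.36 and 6.73 with ligand, and 6.26 to 7.37 with ITD (median 7.12), and only the lowest ITD line and 1 array with ligand fell below the highest receptor-free array. Probe set 4636978 read 5.43 and 4.16 in parental cells, 5.95 and 4.47 with the vector, 6.11 and 6.06 with wild-type FLT3, 6.09 and 6.06 with ligand, and 5.71 to 6.54 with ITD (median 6.25). Here the receptor-free arrays were the scattered ones, with an SD of 0.83 (n = 4) against 0.28 (n = 9) for ITD. The ITD differences were 1.21 ± 0.23 (adjusted p 0.00195) and 1.23 ± 0.26 (adjusted p 0.00449), and the wild-type differences 0.95 ± 0.33 (adjusted p 0.191) and 1.08 ± 0.37 (adjusted p 0.175). Without the first vector array 4636978 was called with wild-type FLT3 (adjusted p 0.0402) and with ligand (0.0418).

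Probe set 4473234 was raised with ITD and close to receptor-free cells with wild-type FLT3. It read 5.76 and 5.56 in parental cells, 5.84 and 5.53 with the vector, 5.77 and 5.83 with wild-type FLT3, 5.85 and 6.20 with ligand, and 6.16 to 7.27 with ITD (median 6.43). Only 1 array with ligand reached into the ITD range. The ITD difference was 0.82 ± 0.20 (adjusted p 0.0154) and the wild-type difference 0.13 ± 0.29 (adjusted p 0.928), but the difference between ITD and wild-type, 0.70 ± 0.26, was not called (adjusted p 0.256), so that the 2 receptors differ at this probe set was not shown.

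Of these 4 calls, 3 rested on single receptor-free arrays. The call of 4474109 was lost without any 1 of the 4 (adjusted p 0.0543 to 0.0641), those of 4473234 and 4636978 without the second parental array (0.0890 and 0.0794) or the second vector array (0.0958 and 0.0797). With the vector line as the only reference 4474109 stood at 0.87 (adjusted p 0.316), 4636978 at 1.02 (adjusted p 0.118) and 4473234 at 0.81 (adjusted p 0.112), and 4473234 was not called against parental cells alone either (adjusted p 0.0866).

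The other 21 probe sets were not called in any contrast. Their ITD differences from receptor-free cells ran from -0.39 to 1.36 with a median of 0.39, and 18 were above 0, while the median of all probe sets tested was -0.02. With wild-type FLT3 the median was 0.22 with 11 above 0, and with ligand 0.31 with 16 above 0. The largest ITD difference among them, that of probe set 4479571, had an adjusted p of 0.056. At an unadjusted p under 0.05 (limma) ITD differed from receptor-free cells in 5 of the 21 and wild-type in 0. These 21 were picked for not being called, so their counts cannot be set beside shares of all probe sets. With called ones included, 14 Flt3 probe sets differed for ITD and 8 for wild-type, beside 17.2% and 11.9% of all probe sets.

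The 4 probe sets with the largest ITD differences in the whole table were all Flt3 probe sets. Among all 1236087, 9 differed by at least 4 (log2) and 4 of these were Flt3, while 4 differed by at least 5 and all of them were Flt3. None was lower by 4 or more. By the gap between the lowest transgene array and the highest receptor-free array, Flt3 held ranks 1 to 5. Rank 6 went to a probe set of Etv5, a transcription factor gene induced by ERK signalling, with a gap of 1.96 beside the 2.01 of the fifth Flt3 probe set. The next were probe sets of Sinhcaf, Ppfia1, Shroom4 and Ddc, and 1 of the first 20 carried no symbol. The gaps of the first 5 thus ran from 2.01 to 7.36 and those of ranks 6 to 20 from 1.35 to 1.96.

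The Flt3 signal was next compared between receptors. No Flt3 probe set was called between ITD and wild-type FLT3 (limma; 1.24% of all probe sets called), with 7 of 30 at an unadjusted p under 0.05 (11.9% of all), and none between ITD and wild-type with ligand (0.713% called), with 2 of 30 (9.81% of all). All of the 5 probe sets raised in each kind of transgene culture had a higher mean with ITD. The difference to wild-type was 0.54 ± 0.18 for 4336763 (adjusted p 0.167), 0.79 ± 0.21 for 5449002 (adjusted p 0.0591), 0.74 ± 0.40 for 5185356 (adjusted p 0.488), 0.75 ± 0.22 for 5518284 (adjusted p 0.118) and 0.42 ± 0.34 for 5131039 (adjusted p 0.691). Every ITD array lay above all 4 wild-type arrays, with and without ligand, for 4336763 and 5449002 only, 2 of 30 where 0.945% of all probe sets do so, and these 2 also lay above all 8 other arrays, as do 0.151% of all. The call of 5449002 depended on what else was tested: adjusted p was 0.0358 among probe sets above the median, 0.0361 among those with 1 symbol, 0.016 with only ITD and wild-type arrays in the fit, and 0.0315 without ITD line 7.

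Wild-type cultures with and without ligand were compared next. No probe set of the table was called between wild-type with and without ligand (0% called; limma found 76028 at an unadjusted p under 0.05, among them 1 of the 30 Flt3 probe sets). For 4336763 the difference was -0.10, with an unadjusted 95% interval from -0.57 to 0.37, and for 5449002 it was 0.10, from -0.44 to 0.64. For 5518284 it was 0.45, from -0.15 to 1.04. With 2 arrays on each side, these intervals do not exclude changes of that size. No Flt3 probe set was called between vector and parental cells either (0.245% of all probe sets called), with 6 of 30 at an unadjusted p under 0.05 (9.63% of all).

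The order of group means at 4336763 was vector (3.30 ± 0.37, SD, n = 2), parental (4.24 ± 0.33, n = 2), wild-type with ligand (11.92 ± 0.11, n = 2), wild-type (12.02 ± 0.04, n = 2) and ITD (12.55 ± 0.25, n = 9). Of the neighbours in this order, vector and parental, wild-type with and without ligand, and wild-type and ITD were each compared and not called; parental and ligand arrays were compared only through the receptor-free mean. At 5449002 it was vector (5.22 ± 0.37), parental (5.80 ± 0.81), wild-type (11.90 ± 0.05), wild-type with ligand (SD 0.17) and ITD (12.69 ± 0.22). There too, none of the compared neighbours was called.

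Among the ITD lines, line 4 was the highest on 8 of the 9 called probe sets, and line 3 on the ninth, 4474109. Line 4 read 13.11 at 4336763, 13.13 at 5449002, 10.61 at 5185356 and 7.27 at 4473234. The lowest reading was spread over lines: line 7 was lowest on 3, lines 5 and 6 on 2 each, and lines 1 and 9 on 1 each. Arrays of 1 line are read by all probe sets together, so these ranks share an array. Among Flt3 probe sets not called, line 4 was highest on 4546883, 4729694 and 5010743 and lowest on 4358834, 4543885 and 5029425. On how many of all probe sets line 4 was highest was not counted. The variance over the 9 ITD arrays was not called above that within the control pairs for any Flt3 probe set (one-sided F ratio, 8 and 4 degrees of freedom, adjusted over the table; 0.000162% of all probe sets called, 95298 at an unadjusted p under 0.05). The SD over ITD lines was 0.25 at 4336763 against 0.26 within control pairs, and 0.22 against 0.45 at 5449002. The highest ratio among the called probe sets was that of 4473234, with an SD of 0.34 against 0.18 (F 3.59, adjusted p 0.763).

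How Flt3 is summarised decided the size of its difference. The mean of all 30 probe sets was 4.55 (parental), 4.47 (vector), 5.60 (wild-type FLT3), 5.76 (ligand) and 5.94 (ITD), so ITD differed from receptor-free cells by 1.43. The 19 probe sets above the median of the table gave 1.93, their median gave 0.96, the 7 above the 75th percentile gave 4.11 and the 9 called ones gave 3.91. The 21 not called gave 0.37, with ITD arrays between 4.84 and 5.12. The filters act on the mean over 17 arrays, 13 of them with the transgene, so 6 of the 19 passed although their receptor-free mean was not above the median of the table, and of the 7 only 1 lay above the 75th percentile without a transgene. The summaries over 19, 7, 9 and 21 probe sets therefore all depend on the arrays compared and are a description. The mean of all 30, which no filter shaped, was fitted with limma beside the means of all probe sets of 22103 genes: it rose by 1.43 with ITD (adjusted p 5.05e-09), by 1.09 with wild-type FLT3 (adjusted p 4.28e-06) and by 1.25 with ligand (adjusted p 1.62e-06). The mean of all 30 also was higher with ITD than with wild-type, by 0.34 (adjusted p 0.0241). Against wild-type with ligand it was not called (0.18, adjusted p 0.288). It was not refitted with single arrays left out. Genes below were read as means of probe sets above the median, 20227 in all, of which 22.4% were called for ITD, 14.6% for wild-type and 16.5% for wild-type with ligand, each against receptor-free cells. On that scale Flt3 stood 1.93, 1.54 and 1.67 above receptor-free cells. Vector and parental cells differed by -0.05 ± 0.11 (adjusted p 0.891, 2.23% called), and ITD lay 0.27 ± 0.09 above the ligand group (adjusted p 0.0858, 5.8% called). Between ITD and wild-type that gene value was called (0.39 ± 0.09, adjusted p 0.0108, 7.71% called), although no single probe set was. Its 19 probe sets passed a filter that includes the compared arrays, so this call is a description too. That call was lost without the first wild-type array (adjusted p 0.164), without the second (adjusted p 0.114) and with the median over probe sets (0.31, adjusted p 0.209).

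Relatives and neighbours of Flt3 were read as genes. The other class III receptor kinases share the receptor's build. Kit, the stem cell factor receptor, differed by 0.10 ± 0.10 (adjusted p 0.527) and Pdgfra, a receptor for platelet-derived growth factor, by -0.02 ± 0.13 (adjusted p 0.922) between ITD and receptor-free cells. Csf1r, the M-CSF receptor, fell by 0.92 ± 0.07 (adjusted p 3.17e-07) and Pdgfrb, the second receptor for platelet-derived growth factor, fell by 0.60 ± 0.17 (adjusted p 0.0168). None of the 4 was called higher. Csf1r was also called lower with wild-type FLT3, by 0.63 ± 0.10 (adjusted p 0.000657), but not with ligand (-0.21 ± 0.10, adjusted p 0.206). The fall of Pdgfrb was lost without the second parental array (adjusted p 0.0666), without the first vector array (adjusted p 0.0683) and against vector cells alone (-0.20, adjusted p 0.605).

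On both sides of the mouse Flt3 gene on chromosome 5, in the order of the RefSeq table for GRCm38.p6, lie Cdx2 and Urad, and Pan3 and Flt1. Cdx2, a homeobox gene of the gut, differed by -0.13 ± 0.09, Urad, which encodes an enzyme of uric acid breakdown, by -0.15 ± 0.12, Pan3, which encodes a subunit of a poly(A) nuclease, by -0.20 ± 0.09 and Flt1, a receptor for vascular endothelial growth factor, by -0.11 ± 0.08. None of the 4 was called with ITD (limma; Pan3 was at an unadjusted p of 0.0338). Pan3 averaged 9.49 in parental cells, 8.75 with the vector and 8.92 with ITD, and against parental cells alone it was -0.57 (adjusted p 0.00173). It was also called among probe sets above the 75th percentile (-0.22, adjusted p 0.0495), and between vector and parental cells (-0.74, adjusted p 0.00912).

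Flt3l, the gene of the ligand, rose by 0.41 ± 0.11 with ITD (adjusted p 0.00922) against the receptor-free mean; it averaged 8.52 in parental cells, 8.97 with ITD, 8.82 with wild-type FLT3 and 9.25 with added ligand. The ITD call was lost without the first parental or the first vector array (adjusted p 0.0541 and 0.0545) and against vector cells alone (adjusted p 0.0809). Of 40 measured genes of the FLT3 pathway other than Flt3, 3 rose (13.7% of all genes) and 9 fell (8.72%) with ITD, with a median of -0.06 beside -0.002 over all genes, and the members that changed belong to several branches. With wild-type FLT3 1 rose (9.45% of all genes) and 9 fell (5.13%), and with wild-type FLT3 and ligand 4 rose (12.1%) and 5 fell (4.41%).

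Among 17 adaptors and proximal enzymes 1 rose and 4 fell. Sos1, an exchange factor that loads RAS, rose by 1.06 ± 0.16 (adjusted p 0.000124), and it also rose with wild-type FLT3, by 1.17 ± 0.23 (adjusted p 0.00209, but 0.0594 without the first wild-type array). Sla, which encodes an adaptor that dampens receptor signals, was at -0.83 ± 0.26, Gab2, a docking protein, at -0.30 ± 0.10 and Vav1, a signalling protein of blood cells, at -0.28 ± 0.08, and the fourth was the phosphatase gene Inpp5d. Against vector cells alone Sla, Gab2 and Vav1 stood at -0.22, -0.10 and -0.15 and were not called. Inpp5d was at -0.27 ± 0.08 with ITD (adjusted p 0.0230). Its mean was 9.98 in parental cells, 9.76 with the vector and 9.60 with ITD. Its calls were not refitted against vector cells alone or with arrays left out. Inpp5d was also called lower with wild-type FLT3, at -0.61 ± 0.12 (adjusted p 0.00166). The call of Sla was also lost without any 1 receptor-free array (adjusted p 0.0837 to 0.0983), that of Vav1 without the second parental or either vector array (0.0668 to 0.108), and that of Gab2 without the first parental array, either vector array or ITD line 1, 2, 3, 7 or 8 (0.0502 to 0.242).

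Of 3 measured Src-family and Syk kinases Syk fell by 0.87 ± 0.16 with ITD (adjusted p 0.000753). It was also called lower with wild-type FLT3, by 0.82 ± 0.23 (adjusted p 0.0226, and 0.0768 against vector cells alone). That wild-type call was also lost without the first parental array (-0.80) or the first vector array (-0.77). So it was without the first (-0.90) or the second wild-type array (-0.74). With ligand Syk fell by 0.71 ± 0.23 (adjusted p 0.0417). In the STAT branch 1 of 4 fell with ITD, Jak2, a kinase of cytokine receptors, by 0.40 ± 0.09 (adjusted p 0.00308). In the RAS-ERK branch 1 of 5 fell, the ERK1 gene Mapk3, by 0.37 ± 0.09 (adjusted p 0.00844, and 0.0923 against vector cells alone). In the PI3 kinase branch 1 of 6 rose, the catalytic subunit gene Pik3cd, by 0.31 ± 0.10 (adjusted p 0.0336), which stood at 0.003 against vector cells alone and lost its call without the second parental array (adjusted p 0.163), the first vector array (0.115), the second vector array (0.0835) and ITD lines 1, 3 or 6 (0.0551 to 0.0553).

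Between ITD and wild-type FLT3 6 of the 40 rose (3.27% of all genes) and 2 fell (4.44%). The STAT5 genes Stat5a and Stat5b rose by 0.58 ± 0.11 and 0.48 ± 0.13, the adaptor gene Grb2 by 0.87 ± 0.20 and Ptprj, a phosphatase that acts on FLT3, by 0.61 ± 0.11, and Pik3cd and the regulatory subunit gene Pik3r1 by 0.53 ± 0.13 and 0.40 ± 0.12. Vav1 fell by 0.46 ± 0.11 and Pdgfrb fell by 0.83 ± 0.22. Wild-type cells were the low ones for Stat5a, Stat5b, Grb2, Ptprj and Pik3r1. Stat5a averaged 10.26 (parental), 10.48 (vector), 9.58 (wild-type FLT3) and 10.16 (ITD). All 8 calls were lost without the second wild-type array (adjusted p 0.107 to 0.447), and all but that of Ptprj without the first (0.0540 to 0.239). Pik3r1 also lost its call without any 1 of ITD lines 1 to 6 or line 8 (0.0530 to 0.0705), and Stat5b without line 2 (0.0517). Against receptor-free cells wild-type FLT3 was called lower for Grb2 (-0.84, adjusted p 0.0153), Ptprj (-0.78, 0.000538) and Stat5a (-0.79, 0.000309). So it was for Stat5b (-0.57, 0.0126) and Pik3r1 (-0.48, 0.0194). None of these genes was called between ITD and receptor-free cells. The wild-type calls of Grb2 and Pik3r1 were lost against parental cells alone, and that of Stat5b against vector cells alone. Without the first or the second wild-type array these calls were lost too, for Grb2 (-0.94 and -0.73), Stat5b (-0.65 and -0.49) and Pik3r1 (-0.57 and -0.40). That of Pik3r1 was also lost without the first parental array (-0.39) or the second vector array (-0.46).

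The 5 genes whose pattern was most like that of Flt3 were Egr2, Slc6a9, Mycn, Etv5 and Ciart. Likeness was the mean absolute difference over the 17 arrays between the 2 gene values, each taken relative to its own receptor-free mean, and was 0.25, 0.28, 0.30, 0.30 and 0.30 (log2) in this order. Egr2, an immediate early transcription factor gene, averaged 5.49 in parental and 5.48 in vector cells, 6.77 with wild-type FLT3, 7.29 with ligand and 7.17 with ITD. Slc6a9, a glycine transporter gene, averaged 7.33, 8.13, 9.49, 9.35 and 9.40 in the same groups. For all 5 every array with a transgene lay above every receptor-free array, which the choice by this likeness favours. How many of all genes do so was not counted.

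The ITD differences of the 5 ran from 1.60 to 1.72 and were called. With wild-type FLT3 4 were called, with differences from 1.28 to 1.87, while Mycn, a MYC family gene, was at 0.87 ± 0.30 (adjusted p 0.0591, but 0.000285 with only the compared groups in the fit). Egr2 lost its wild-type call without the first wild-type array (adjusted p 0.0939). These genes were picked for this likeness, so their values are a description.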

How the data were processed

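The deposited values are log2 signals for single probe sets. Per the submitters' processing notes, they come from RMA as run by Expression Console 1.1 (Affymetrix). The method corrects for background, brings the arrays to a common distribution and combines the probes of a set, and it compresses differences near background. Genome build and probe set filter are not given in the sources used here.

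Of 1256831 probe sets, 20744 were exactly 0 on all arrays and left out. The platform annotation gave 318760 probe sets 1 symbol, updated through RefSeq synonyms (18006 of 22296 symbols current, 4227 changed, 63 kept unmatched), and 6684 had several symbols. The members and lists were chosen with earlier results of these data known. Probe sets were fitted with limma 3.58.1 in R 4.3.3 (lmFit, eBayes with trend, two-sided, 12 residual and 10.8 prior degrees of freedom), in 7 contrasts. Receptor-free is the unweighted mean of the parental and vector groups. Genes (20227) were means of probe sets above 4.60, the median over the table. The script was tested on simulated data. Alternatives covered normalisation, dim filters, probe set summaries, the reference group, the arrays in the fit, a replicate block and each array left out.

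Probe sets called in any contrast were described array by array. Kit, Csf1r, Pdgfra, Pdgfrb, Flt3l and the 2 genes on either side of Flt3 were always named, other pathway genes when called with ITD against receptor-free or wild-type cells (up to 3 per list and direction; Inpp5d was added as the last of a count), and the 5 genes nearest to Flt3, predicted gene models passed over. Probe sets without a symbol were also to be screened by ID, but 99.3% of them had an ID between the lowest and highest Flt3 probe set, so this screen selects nothing.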

Additional observations from a re-analysis of the deposited data

Results flagged for a closer look

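Over the 9 ITD arrays, 36 sets of values (30 Flt3 probe sets, the Flt3 gene value and the 5 genes most like it) were screened for 1 array far from the others, and 3 had one, where chance gives about 1 in 20. At probe set 4474109 ITD line 3 read 4.91 and the other lines 3.42 to 4.12. At probe set 4546883 line 2 read 4.98 and the others 5.69 to 6.40. At probe set 5100901 line 9 read 4.87 and the others 3.21 to 3.97. Of these 3, only 4474109 was called in a contrast, and a different line stood apart in each.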

How the results depend on the processing

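The counts of Flt3 probe sets called against receptor-free cells stayed within 1.5 times under every alternative run: with single arrays left out they were 7 to 10 for ITD and 5 to 6 for wild-type with or without ligand. The count between ITD and wild-type went from 0 to 1 with the dim filter, with only probe sets of 1 symbol, with only the compared groups, and over the arrays left out it was 0 to 1. The Flt3 gene value between ITD and wild-type was 0.31 and not called with the median of probe sets, and 0.37 to 0.42 with single arrays left out. Between ITD and wild-type with ligand it was 0.47 and called (adjusted p 0.0331) above the 75th percentile. Of the 7 probe sets in that value only 1 lay above this percentile without a transgene, so the call is a description. Between vector and parental cells the gene value ran from -0.18 to 0.075 with single arrays left out. It was -0.39 (adjusted p 0.237) above the 75th percentile. Signs turned for uncalled values: probe set 4636978 with against without ligand (0.016, arrays centred), Pdgfra with ITD (0.20 against parental cells, 0.094 with the median of probe sets), Kit (-0.014 against vector cells), Pan3 (0.17 against vector cells) and Cdx2 (0.20 with the median). With single arrays left out, ligand against no ligand ran from -0.48 to 0.080 for 4309131, -0.032 to 0.012 for 4636978, -0.26 to 0.37 for 5131039, -0.15 to 0.30 for 5185356 and -0.020 to 0.22 for 5449002. In the same way ITD minus wild-type ran from -0.015 to 0.54 for 4309131, ITD minus wild-type with ligand from -0.96 to 0.17 for 4474109, and ITD minus receptor-free from -0.074 to 0.029 for Pdgfra. The causes were not tested. Replicate numbers do not pair the control groups (correlation of same-numbered deviations over genes -0.12 to 0.09). With the replicate block the counts were again 9, 5 and 5, with a gene value of 1.93 for ITD. The block ended the calls of Gab2 (adjusted p 0.0540) and of Pik3r1 against wild-type (0.0595) and no other call that was run with it. Calls such as those of Inpp5d, Syk with ligand, Pan3 between vector and parental cells and the mean of all 30 probe sets were not run with it. Signal over background limits the 17 Flt3 probe sets whose receptor-free mean is not above the median of the table, 4 of the 5 strongest among them.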
